A study of Homo sapiens with 2 samples.

Results

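The genes of the proteasome were read across the 8 conditions of a single-cell RNA study of MCF10A cells, a human mammary epithelial line that is immortal but forms no tumours and that depends on EGF to proliferate. Members were the rows of both count tables whose symbol begins with PSM, a letter from A to G and a number, and 52 of the 16387 genes present in both tables met this. Of these, 46 carried a plain subunit or partner symbol. They are described by role as 43 subunits and partners, here called constitutive, and, apart from them, the 3 immunoproteasome subunits PSMB8, PSMB9 and PSMB10. The name constitutive only sets the 43 apart from these 3, and it takes in PSME1 and PSME2. The other 6 rows only begin like a subunit, namely PSMC3IP and the antisense or neighbouring RNAs PSMA3-AS1, PSMB8-AS1, PSMD6-AS1, PSMD6-AS2 and PSMG3-AS1. All 43 constitutive members and 2 of the 3 immunoproteasome members had enough counts to be tested, while PSMB9 did not. PSMA8 and PSMB11 were not analysed here.

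The 26S proteasome is the large protease that degrades proteins marked with ubiquitin. Its 20S core is a barrel of alpha rings (PSMA), which gate the entry, and beta rings (PSMB), of which PSMB5, PSMB6 and PSMB7 cut proteins. The 19S cap recognises, deubiquitinates and unfolds substrates through its ATPases (PSMC) and its non-ATPase subunits (PSMD). In cells exposed to interferon, PSMB8, PSMB9 and PSMB10 replace the constitutive catalytic subunits. The PA28 activator made of PSME1 and PSME2 then caps the core, and both change the peptides offered to T cells.

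Cells after 5 h and 15 h with an inhibitor were compared with EGF alone. Cells given EGF at 0 h received a MEK inhibitor or a PI3K inhibitor at 15 h and were collected at 20 h and 30 h. Cells with EGF alone were collected at 15 h, 20 h and 30 h, and unstimulated cells at 0 h. MEK is the kinase that activates ERK, and PI3K is the lipid kinase upstream of AKT. Which compounds were used, and at what dose, is not stated in the labels. All groups are 1 cell line, for which the labels name no engineered genetic change, and each condition carried its own tag. They were pooled into 2 libraries, each a biological replicate, so n = 2 for every condition. Cells numbered 2616 in library 1 and 2221 in library 2, and no cell barcode was shared between them. The groups given EGF held 64 to 616 cells per library, and the unstimulated group held the fewest of each library, 175 in library 1 and 29 in library 2. Median depth ran from 7024 to 16000 UMIs per cell. All 12 epithelial markers were present, summing to between 13184 and 28142 CPM per group (UMIs of a gene scaled to a fixed total of all UMIs), whereas PTPRC, the pan-leukocyte marker, and 4 other leukocyte markers were not among the genes in both tables. The 3 leukocyte markers found summed to 7.52 to 37.5 CPM, the 4 fibroblast markers to 7.87 to 98.5 CPM, the 2 endothelial markers to 0 to 4.88 CPM and the 3 smooth muscle markers to 80.2 to 695 CPM. Most counts of the smooth muscle markers came from TAGLN.

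Proteasome transcripts took their largest share of all UMIs in cells with EGF alone at 30 h and their smallest in unstimulated cells. The 46 plain symbols together held 4460 and 5474 CPM of all UMIs in libraries 1 and 2 of unstimulated cells, 6336 and 6644 CPM after 15 h of EGF, 6806 and 6910 CPM after 20 h and 7520 and 7786 CPM after 30 h. With the PI3K inhibitor the sum was 5977 and 6233 CPM at 20 h and 5367 and 5878 CPM at 30 h. With the MEK inhibitor it was 6680 and 6983 CPM at 20 h and 5980 and 6859 CPM at 30 h. At 30 h the PI3K inhibitor groups thus differed from EGF alone by -28.6% (library 1) and -24.5% (library 2), and the MEK inhibitor groups by -20.5% and -11.9%. As shares of all UMIs, all 4 inhibitor groups at 30 h lay below both groups with EGF alone. On the TMM scale explained below, the MEK inhibitor sums were 6586 and 6727 CPM, against 7401 and 6700 CPM with EGF alone, so the difference turned in library 2. The PI3K inhibitor sums on that scale, 6145 and 6011 CPM, stayed below EGF alone in both libraries. These sums are given as a description and were not tested. Ribosomal protein genes, which dilute every other gene in such shares, took 33.9% and 29.5% of UMIs with the PI3K inhibitor at 30 h, against 28.1% and 22.9% with EGF alone. With ribosomal protein and mitochondrial-encoded UMIs left out, the proteasome sum was 8745 and 8952 CPM with the PI3K inhibitor at 30 h and 11225 and 10839 CPM with EGF alone.

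**Figure D1:**
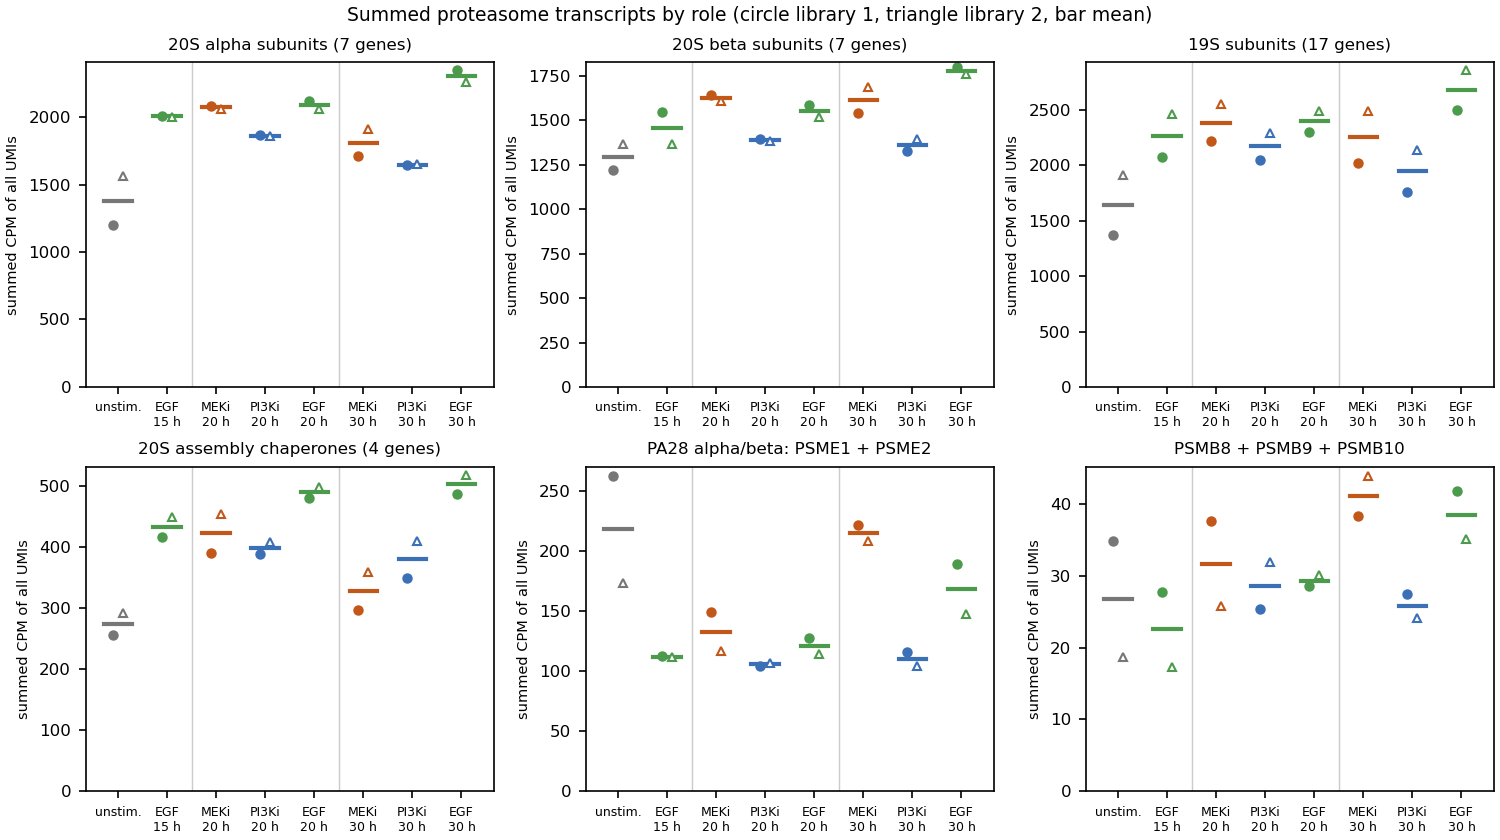
Summed CPM of all UMIs (vertical axes) of 6 groups of proteasome genes in each condition (horizontal axes), with circles for library 1, triangles for library 2 and bars for their mean; MEKi and PI3Ki mark cells with the MEK or PI3K inhibitor. Alpha, beta and 19S subunits were highest with EGF alone at 30 h, while PSME1 and PSME2 together were highest in unstimulated cells and with the MEK inhibitor at 30 h.

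Fold changes and the levels of single genes below are on another scale, on which each group's sum was scaled so that most genes do not differ between groups (TMM scaling; levels are given as scaled CPM). A gene was called at an adjusted p under 0.05 over all 11147 genes tested. Against scaling by total UMIs alone, this scaling moves the median gene of a comparison by up to 0.26 on the log2 scale. The shift under totals alone was -0.18 for the MEK inhibitor at 30 h, -0.14 and -0.24 for the PI3K inhibitor at 20 h and 30 h, and 0.19 and 0.26 for 15 h and 30 h of EGF against unstimulated cells, and -0.12 for the change of the MEK inhibitor effect between its 2 times. A change below is therefore a change relative to the median gene. A sum over cells also cannot tell a lower level in every cell from a smaller share of cells with a high level.

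After 15 h with the PI3K inhibitor most constitutive proteasome genes were lower than with EGF alone. At 30 h, 24 of the 43 were lower, where 20% of all tested genes were lower, and 1 was higher, PSMD4, where 19.7% of all genes were higher (39.7% in either direction). Their median log2 change was -0.31, against 0.01 over all tested genes, and all 43 ran from -1.03 for PSME2 to 0.59 for PSMD4. After 5 h with this inhibitor (20 h) 6 were lower and 1 higher, against 11.9% and 11.4% of all genes (23.4% in either direction), and the median was -0.09. By role, at 30 h 4 of 7 alpha subunits, 4 of 7 beta subunits, 3 of 6 ATPases and 8 of 11 other 19S subunits were lower. Also lower were 3 of 4 activators and 2 of 4 core assembly chaperones, while none of the 3 chaperones of the 19S base nor the inhibitor PSMF1 was called. Without the library term in the fit the calls numbered 14 at 30 h and 1 at 20 h. With totals alone 16 were lower and 1 higher at 20 h, and with thinned cells 3 were lower. At 20 h leaving out library 1 of EGF alone left 2 calls, and leaving out library 1 or library 2 of the PI3K inhibitor left 3 and 4.

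The MEK inhibitor moved fewer of them, and in both directions. At 30 h 2 of the 43 were higher, PSME1 and PSME2, where 18.9% of all genes were higher, and 7 were lower, where 19% were. The lower ones were PSMG3, PSME3, PSMG1, PSMA5, PSMC4, PSMD14 and PSMD12. The median log2 change of the 43 was -0.08, against 0.01 over all genes, and 37.8% of all tested genes were called in either direction. At 20 h PSME1 was higher and PSMG3 lower, against 4.8% and 7.15% of all genes (11.9% in either direction). With totals alone as the scale, 26 were lower and 1 higher at 30 h, and with RLE size factors 6 were lower and 3 higher. The number of members called lower at 30 h thus rests on the scaling. Without the library term there were 3 calls at 30 h and 0 at 20 h. With it, 14 and 6 had an unadjusted p under 0.05, and DESeq2 called 7 and 0. At 20 h leaving out any 1 of the 4 sums left 0 or 1.

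Set directly against each other, the inhibitors differed most at PSMB8, PSME2 and PSME1 at 30 h. At 30 h 18 of the 43 were higher with the MEK inhibitor than with the PI3K inhibitor, against 21.2% of all genes, and 5 were lower, PSMG4, PSMD4, PSMG1, PSMG2 and PSMA5, against 20.3% (41.6% in either direction). The median log2 difference of the 43 was 0.20, against -0.01 over all genes. At 20 h PSMD10, PSMA3, PSMA4 and PSMB5 were higher, against 11.2% of all genes, and none was lower, against 10.4% (21.6% in either direction). The fit without the library term called 7 at 30 h and 1 at 20 h, totals alone gave 11 at 20 h, and without library 2 of the MEK inhibitor 15 were called at 30 h. At 20 h the call of PSMB5 was lost on leaving out any 1 of the 4 sums, and that of PSMA3 with cells thinned to one depth.

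With EGF alone, more constitutive genes were called higher than lower against unstimulated cells. After 15 h 18 of the 43 were higher, against 14.1% of all genes, and 4 were lower, PSME1, PSMD10, PSME2 and PSMB4, against 13.9% (28% in either direction). After 30 h 25 were higher, against 17.6%, and 2 were lower, PSME1 and PSMB4, against 16.2% (33.8% in either direction), with a median log2 change of 0.54 against 0.02 over all genes. Between 15 h and 20 h edgeR called 0 of the 43, where 3.44% of all genes were higher and 1.66% lower (5.1% in either direction). Of the 43, 5 had an unadjusted p under 0.05 and DESeq2 called 0. Between 20 h and 30 h PSME2 and PSMC3 were higher, against 4.51% of all genes, and 0 were lower, against 3.27% (7.79% in either direction). Both comparisons with unstimulated cells rest on library 1: without its 175 unstimulated cells 2 calls were left at 15 h and 4 at 30 h. Unstimulated cells also stood apart in the 4 fibroblast markers, which summed to 96.3 and 98.5 CPM there. These markers summed to 18.7 and 7.87 CPM after 15 h of EGF and to 14.7 and 9.39 CPM after 30 h. DCN gave most of their counts, 1207 over all groups, against 80 for COL1A1. The 3 smooth muscle markers did not set unstimulated cells apart, at 187 and 150 CPM. That lay between 695 and 641 CPM after 15 h and 111 and 113 CPM after 30 h. TAGLN gave most of these counts, 15618 over all groups, against 272 for ACTA2 and 27 for MYH11. The part of either list in these results was not tested. Leaving out library 1 of the cells at 15 h left 10 calls at 15 h, as did the fit without the library term, which also left 0 between 20 h and 30 h. From 20 h to 30 h, 0 calls were left without library 1 of EGF alone at 30 h and 1 without library 2 of either time, and from 15 h to 20 h there was 1 call without library 1 of 15 h or without library 2 of 20 h.

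**Figure D2:**
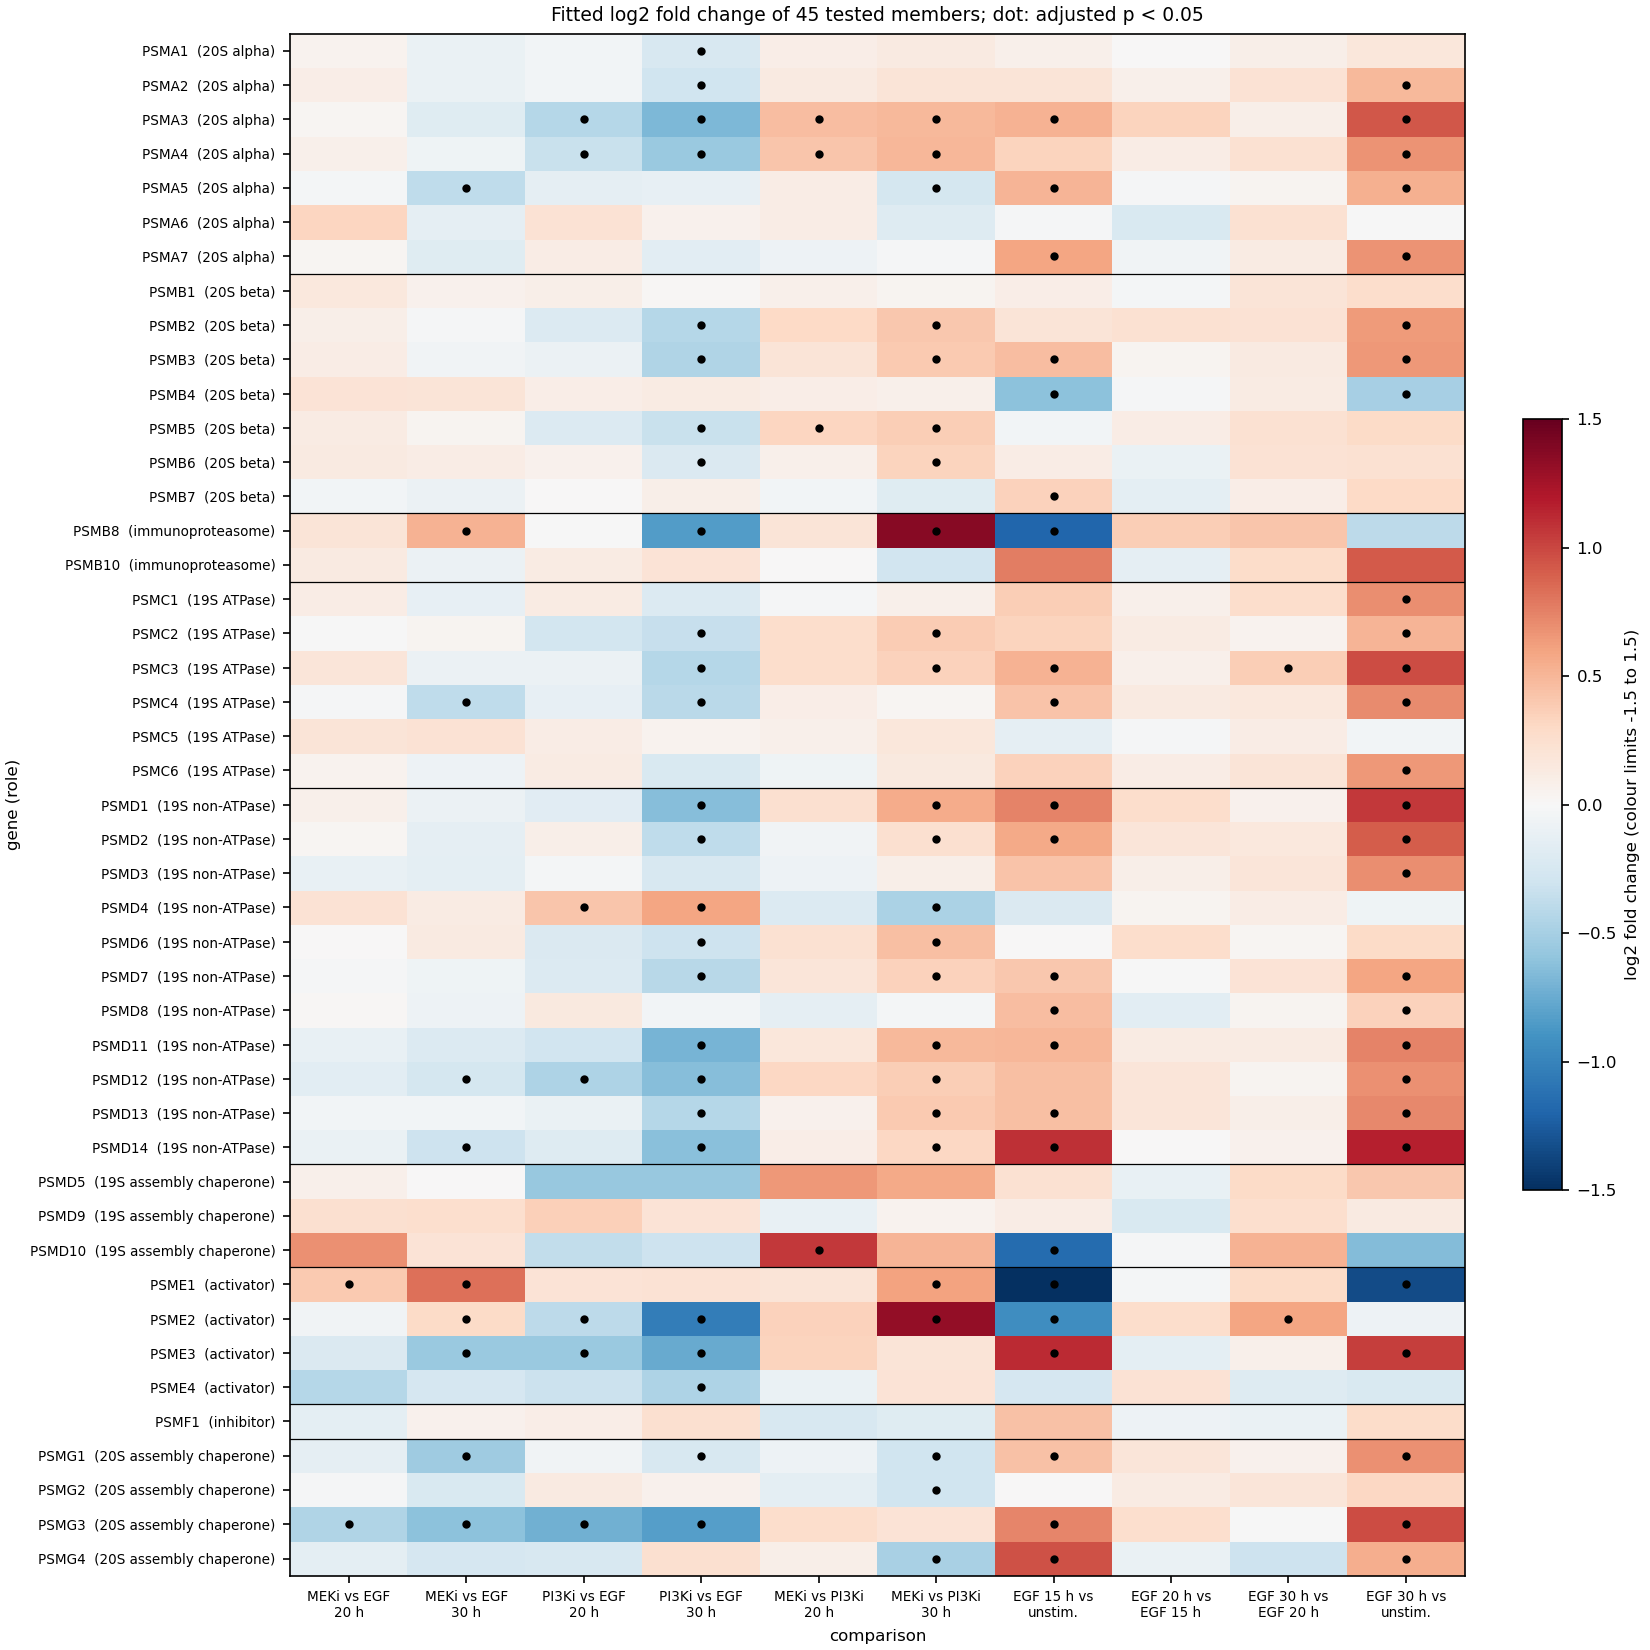
Fitted log2 fold changes (colour, limits at -1.5 and 1.5) of the 45 tested members with a plain symbol (rows, grouped by role) in 10 comparisons (columns), with a black dot where the adjusted p was under 0.05. The column of the PI3K inhibitor at 30 h is blue for most subunits, PSMD4 is red in both PI3K inhibitor columns, and PSME1, PSME2 and PSMB8 are red with the MEK inhibitor at 30 h.

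Among the alpha subunits of the 20S core, PSMA3 and PSMA4 were lower with the PI3K inhibitor at both times. PSMA3 stood at 124 and 133 scaled CPM with the PI3K inhibitor at 20 h in libraries 1 and 2, against 173 and 171 with EGF alone. At 30 h it stood at 101 and 128 scaled CPM with the PI3K inhibitor and at 186 and 182 with EGF alone, with no overlap at either time. The log2 changes of PSMA3 were -0.43 (SE 0.10, adjusted p = 0.0016) and -0.68 (SE 0.10, adjusted p = 1.1e-07). The call at 20 h was lost in the fit without the library term, with cells thinned to one depth and without library 1 of EGF alone. With the MEK inhibitor PSMA3 stood at 164 and 191 scaled CPM at 20 h and at 152 and 170 at 30 h, which was not called against EGF alone but it was called against the PI3K inhibitor (0.46 and 0.49). PSMA4 changed by -0.34 at 20 h and -0.56 at 30 h with the PI3K inhibitor. PSMA5 was the alpha subunit that was lower with the MEK inhibitor, at 139 and 179 scaled CPM at 30 h against 211 and 208 with EGF alone (log2 -0.38, adjusted p = 0.00088). This call was lost without library 1 of the MEK inhibitor and in the fit without the library term. PSMA7 was called in none of the 6 comparisons with an inhibitor and was higher with EGF, by 0.60 at 15 h and 0.67 at 30 h over unstimulated cells. PSMA6, with 1.41 to 17.6 scaled CPM over the 16 sums, and PSMA1 and PSMA2, whose log2 changes with the PI3K inhibitor at 30 h were -0.24 and -0.30, complete the ring. The low level of PSMA6 is uncertain, since it has 4 annotated pseudogene copies with which reads could be shared.

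Of the catalytic beta subunits, PSMB5, which carries the chymotrypsin-like activity, and PSMB6, which carries the caspase-like activity, were lower with the PI3K inhibitor at 30 h. PSMB5 stood at 188 and 180 scaled CPM with that inhibitor, against 240 and 223 with EGF alone (log2 -0.33, SE 0.09, adjusted p = 0.0025). This call was lost without library 1 of the PI3K inhibitor, without library 2 of EGF alone and without the library term. PSMB6 stood at 211 and 216 scaled CPM against 264 and 236 (log2 -0.22, SE 0.09, adjusted p = 0.046). Of 11 tested alternatives 2 still called it, and leaving out any 1 of the 4 sums ended it. PSMB7, which carries the trypsin-like activity, stood at 213 and 203 scaled CPM with the PI3K inhibitor and at 206 and 185 with EGF alone, with overlapping groups and no call. With the MEK inhibitor at 30 h PSMB5 stood at 244 and 232, PSMB6 at 260 and 276 and PSMB7 at 174 and 192 scaled CPM, and none of these was called against EGF alone. PSMB4 was the beta subunit called lower in the time course, at 170 and 114 scaled CPM after 15 h of EGF against 248 and 207 in unstimulated cells (log2 -0.61, SE 0.13, adjusted p = 0.00017). That call was lost without library 1 of the unstimulated cells. PSMB2 and PSMB3 changed by -0.42 and -0.45 with the PI3K inhibitor at 30 h, and PSMB1 was called in none of the 10 pairwise comparisons.

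The 19S cap held 11 of the 24 genes that were lower with the PI3K inhibitor at 30 h. PSMD11, a subunit of the lid, stood at 61.1 and 62.6 scaled CPM with the PI3K inhibitor at 30 h, against 91.1 and 108 with EGF alone. Its log2 change was -0.69 (SE 0.11, adjusted p = 8.2e-07) and all 11 tested alternatives kept the call. PSMD14, the deubiquitinase of the lid that removes ubiquitin chains from substrates, stood at 75.2 and 85.3 scaled CPM with the PI3K inhibitor and at 86.0 and 112 with the MEK inhibitor, against 123 and 126 with EGF alone. Both inhibitor groups lay below EGF alone without overlap, by -0.63 (adjusted p = 1.1e-06) with the PI3K inhibitor and -0.32 (adjusted p = 0.0077) with the MEK inhibitor. PSMD14 was also the largest rise with EGF at 30 h, against 51.2 and 65.9 scaled CPM in unstimulated cells (log2 1.16, SE 0.17, adjusted p = 3.7e-07). The call was lost without library 1 of the unstimulated cells, as were those of PSMD1 (1.06) and PSME3 (1.04). PSMD12, another lid subunit, was lower with the PI3K inhibitor at 20 h (-0.47) and 30 h (-0.63) and with the MEK inhibitor at 30 h (-0.26). The call at 20 h was lost without library 1 of either group and without the library term. PSMD1 and PSMD2, the large scaffold subunits of the base, changed by -0.64 and -0.38 with the PI3K inhibitor at 30 h. Of the ATPases, which unfold substrates, PSMC2, PSMC3 and PSMC4 were lower with the PI3K inhibitor at 30 h, with log2 changes of -0.34, -0.43 and -0.41, and PSMC5 was called in none of the 10 pairwise comparisons.

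PSMD4 moved the other way from its neighbours in the cap. This ubiquitin receptor (chr1:151254703-151267479, GRCh38, plus strand) stood at 230 and 184 scaled CPM with the PI3K inhibitor at 20 h, against 168 and 143 with EGF alone. At 30 h it stood at 268 and 237 scaled CPM with the PI3K inhibitor, 187 and 175 under the MEK inhibitor and 180 and 155 with EGF alone. Both PI3K inhibitor groups lay above EGF alone without overlap. The log2 change was 0.42 (SE 0.10, adjusted p = 0.00086) at 20 h and 0.59 (SE 0.09, adjusted p = 2.9e-07) at 30 h. The call at 30 h was kept by all 11 tested alternatives, while the one at 20 h was lost without library 1 of the PI3K inhibitor, with thinned cells and without the library term. PSMD4 has 1 annotated pseudogene copy, whose reads the counting could not be shown to keep apart.

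The 4 activators parted from one another. PSME1, the alpha chain of PA28, stood at 140 and 95.6 scaled CPM with the MEK inhibitor at 30 h, 91.8 and 63.3 under the PI3K inhibitor and 82.4 and 52.0 with EGF alone. Both libraries rose with the MEK inhibitor, by 0.76 and 0.87 on the log2 scale, and the groups did not overlap. The fitted change was 0.82 (SE 0.10, adjusted p = 6.6e-09), which the fit without the library term no longer called (adjusted p = 0.065). Cells after 15 h of EGF held 66.5 and 43.8 scaled CPM, against 212 and 96.7 in unstimulated cells, a log2 change of -1.60 (SE 0.15, adjusted p = 2.7e-12). It was not called without library 1 of the unstimulated cells. At 20 h PSME1 stood at 87.7 and 56.5 scaled CPM under the MEK inhibitor and 62.1 and 48.0 with EGF alone, and these groups overlapped. The call (0.39, adjusted p = 0.029) was kept by 4 of 11 tested alternatives, and was lost without library 1 of either group and without library 2 of the MEK inhibitor.

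PSME2, the beta chain of PA28, was the constitutive member with the largest change under the PI3K inhibitor. It stood at 41.3 and 43.7 scaled CPM with the PI3K inhibitor at 30 h, 104 and 108 under the MEK inhibitor and 103 and 75 with EGF alone. The difference of the PI3K inhibitor from EGF alone at 30 h was -1.03 (SE 0.12, adjusted p = 8.2e-10). The difference of MEK from PI3K inhibitor was 1.32 (SE 0.12, adjusted p = 8.9e-14), and all 11 tested alternatives kept both calls. The rise over EGF alone with the MEK inhibitor was 0.29 (adjusted p = 0.030), but it was 0.00 in library 1 and 0.53 in library 2. Of 11 tested alternatives 4 called it, and leaving out library 2 of either group ended the call. At 20 h PSME2 stood at 45.9 and 43.8 scaled CPM under the PI3K inhibitor and 64.2 and 52.2 with EGF alone (log2 -0.40, adjusted p = 0.037). That call was kept by 4 of 11 and was lost without library 1 of either group and without library 2 of the PI3K inhibitor. From 20 h to 30 h with EGF alone PSME2 rose by 0.59 (adjusted p = 0.00038), and neither the fit without the library term nor the one without library 1 of EGF alone at 30 h called that rise. With the PI3K inhibitor the levels at 20 h and 30 h lay close. The wider difference at 30 h thus reflects higher levels with EGF alone.

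PSME3, the nuclear activator PA28 gamma, changed in the opposite direction to PSME1 with the MEK inhibitor at 30 h and after 15 h of EGF. With the PI3K inhibitor PSME1 was not called against EGF alone at either time. It stood at 20.5 and 22.3 scaled CPM with the PI3K inhibitor at 30 h, 24.0 and 25.1 under the MEK inhibitor and 35.2 and 37.2 with EGF alone. Both inhibitor groups lay below EGF alone without overlap, by -0.75 (SE 0.15, adjusted p = 3.2e-05) with the PI3K inhibitor and -0.56 (SE 0.14, adjusted p = 0.0010) with the MEK inhibitor. Neither call was kept with cells thinned to one depth, and the second was also lost without library 2 of EGF alone. PSME3 was also lower with the PI3K inhibitor at 20 h (log2 -0.56, adjusted p = 0.010), a call that 6 of 11 tested alternatives kept. After 15 h of EGF it stood at 36.1 and 49.5 scaled CPM, against 16.8 and 22.0 in unstimulated cells (log2 1.11, adjusted p = 0.0023; not called without library 1 of the unstimulated cells). PSME4, the nuclear activator PA200, stood at 13.6 and 13.4 scaled CPM with the PI3K inhibitor at 30 h and 15.8 and 20.7 with EGF alone (log2 -0.46, adjusted p = 0.038), and 5 of 11 tested alternatives kept that call, which was lost without either library of the PI3K inhibitor and without library 2 of EGF alone.

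**Figure D3:**
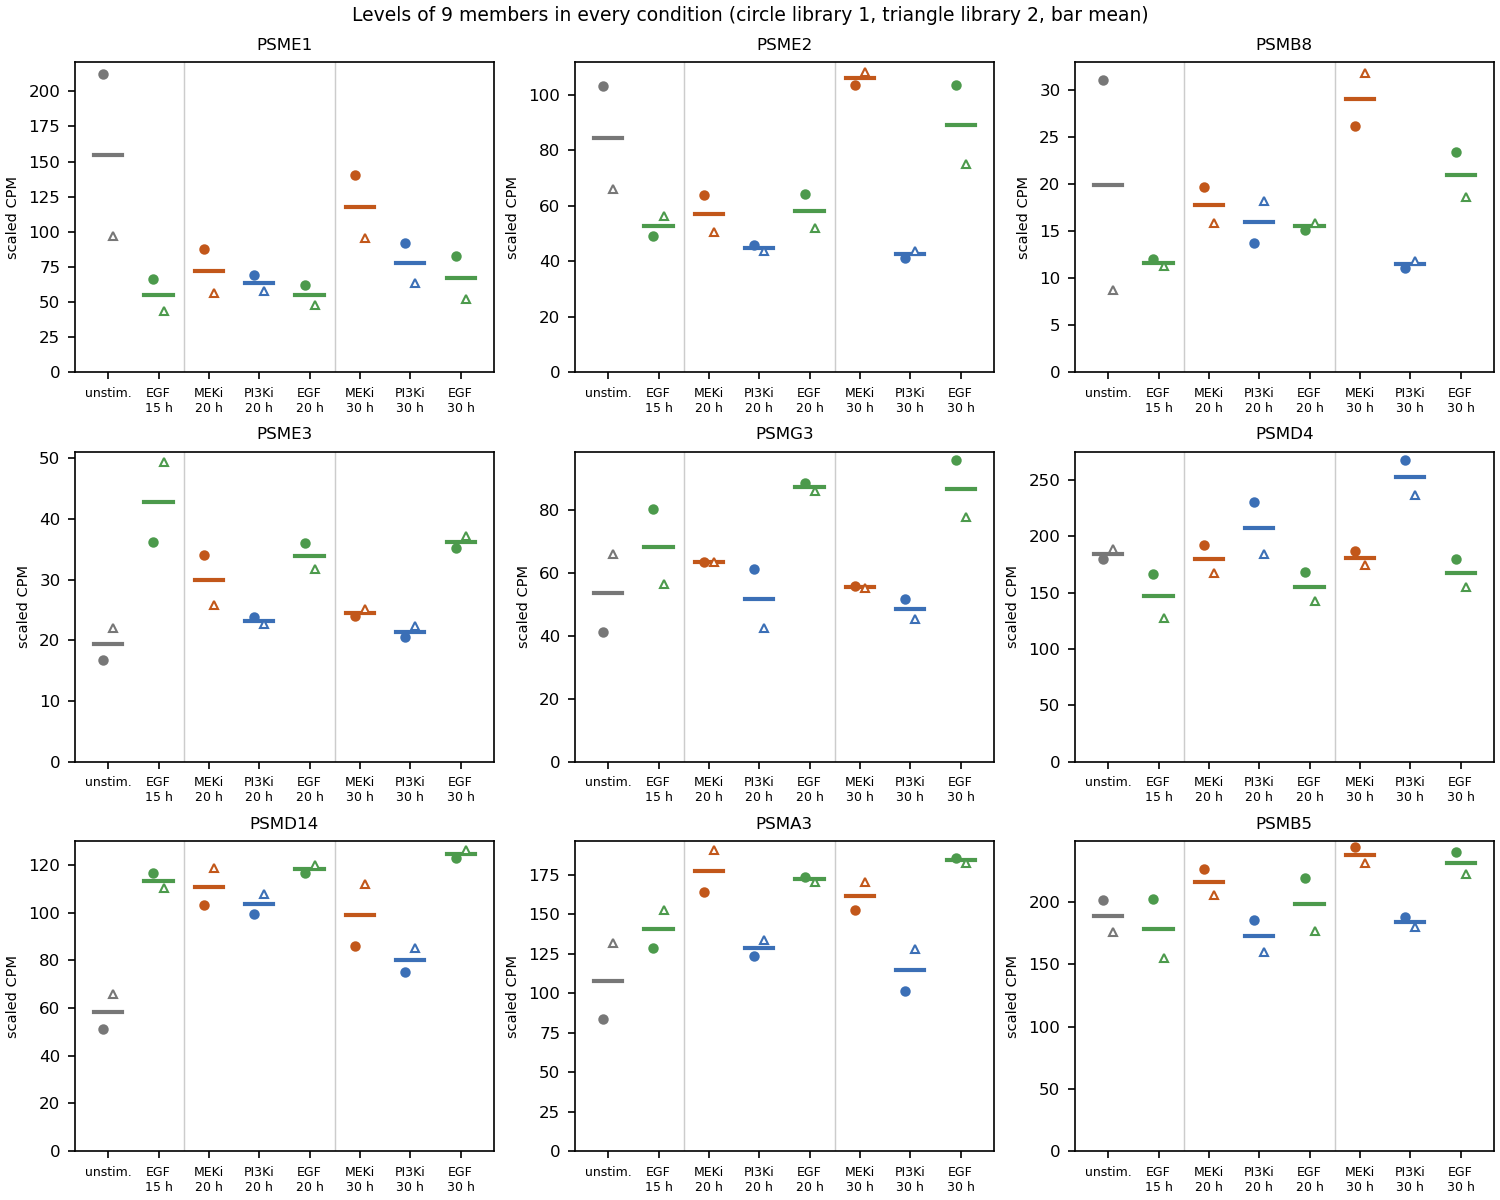
Scaled CPM (vertical axes, from 0) of 9 proteasome genes in each condition (horizontal axes), with circles for library 1, triangles for library 2 and bars for their mean. PSME2 and PSMB8 lie at 41.3 to 43.7 and 11.1 to 11.8 with the PI3K inhibitor at 30 h, below both other 30 h groups, and PSMD4 is highest there.

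PSMB8, the immunoproteasome subunit that takes the place of PSMB5, followed PSME2 in the inhibitor comparisons at 30 h. It stood at 11.1 and 11.8 scaled CPM with the PI3K inhibitor, 26.2 and 31.8 under the MEK inhibitor and 23.4 and 18.7 with EGF alone, and these 3 groups did not overlap. The change with the PI3K inhibitor was -0.84 (SE 0.19, adjusted p = 0.00036), which thinning cells to one depth no longer called. The difference of MEK from PI3K inhibitor was 1.36 (SE 0.17, adjusted p = 5.3e-09), which all 11 tested alternatives called. With the MEK inhibitor against EGF alone the change was 0.52 (adjusted p = 0.0066), with 0.16 in library 1 and 0.75 in library 2. Of 11 tested alternatives 6 called it, and it was not called without library 2 of either group. At 20 h PSMB8 stood at 19.7 and 15.9 scaled CPM with the MEK inhibitor, 13.7 and 18.2 under the PI3K inhibitor and 15.2 and 15.9 with EGF alone, and no difference was called. After 15 h of EGF it stood at 12 and 11.3 scaled CPM, against 31.0 in library 1 of the unstimulated cells, from 37 counts, and 8.79 in library 2, from 2 counts. The fitted change there of -1.19 (adjusted p = 0.0038) turned to 0.48 without library 1 of the unstimulated cells and was 0.34 in library 2 alone.

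At least 1 UMI of PSMB8 was found in 23.7% and 33.6% of cells under the MEK inhibitor at 30 h in libraries 1 and 2, in 11.7% and 12.5% with the PI3K inhibitor and in 26.9% and 25.3% with EGF alone. With every cell thinned to 6000 UMIs and shallower cells left out, the shares were 14.1% of 326 and 19% of 580 cells with the MEK inhibitor, 5.80% of 362 and 7.56% of 463 under the PI3K inhibitor and 13.9% of 230 and 8.87% of 327 with EGF alone. The exact 95% binomial intervals of the thinned shares cover counting error only. In library 1 they ran from 10.5% to 18.4% with the MEK inhibitor and from 9.72% to 19.1% with EGF alone, which overlap. With the PI3K inhibitor that library gave 3.63% to 8.73%, below both. In library 2 they ran from 5.32% to 10.4% with the PI3K inhibitor and from 6.02% to 12.5% with EGF alone, which overlap. With the MEK inhibitor that library gave 15.9% to 22.4%, above both. A cell type without PSMB8 is not part of these data, so a background from free RNA could not be set beside them. PSMB10, the subunit that takes the place of PSMB7, stood at 15.5 and 10.6 scaled CPM with the MEK inhibitor at 30 h, 19.3 and 12.8 under the PI3K inhibitor and 16.8 and 11.1 with EGF alone. These groups overlap, and it was called in none of the 10 pairwise comparisons. PSMB9, the subunit that takes the place of PSMB6, had 0 to 6 counts in each of the 16 sums and was not tested. PSMB8 (chr6:32840717-32844703, GRCh38, minus strand) overlaps PSMB9 and PSMB8-AS1 in the annotation. No source states if counting was stranded, so reads of these 3 could not be shown to be kept apart.

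The starts of PSME1, PSME2 and PSMB8 are shown because these genes moved together in the difference of MEK from PI3K inhibitor at 30 h. The start of PSMD12 is shown as an example of a member lower with both inhibitors at 30 h. PSMG3, PSME3, PSMG1, PSMC4 and PSMD14 were so too, and their starts are not shown. Each line is RefSeq sequence of GRCh38.p14, from 250 bases before to 50 bases after an annotated start, 5′ to 3′ on the gene's strand. Capitals mark matches, on either strand, to GAAANNGAA (the core of the interferon-stimulated response element), TTCNNNGAA (the gamma-activated site, GAS), TGACNNNGC (the antioxidant response element bound by factors such as NFE2L1 and NFE2L2) and CCGGAAG (the ETS site).
PSME1, chr14:24135944-24136243, plus strand: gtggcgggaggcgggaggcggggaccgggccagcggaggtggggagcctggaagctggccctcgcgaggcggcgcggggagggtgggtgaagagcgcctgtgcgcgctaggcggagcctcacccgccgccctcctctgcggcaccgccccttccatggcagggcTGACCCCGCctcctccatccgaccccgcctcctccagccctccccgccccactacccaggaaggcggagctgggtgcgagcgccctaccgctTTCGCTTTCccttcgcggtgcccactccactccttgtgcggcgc
PSME2, chr14:24146561-24146860, minus strand: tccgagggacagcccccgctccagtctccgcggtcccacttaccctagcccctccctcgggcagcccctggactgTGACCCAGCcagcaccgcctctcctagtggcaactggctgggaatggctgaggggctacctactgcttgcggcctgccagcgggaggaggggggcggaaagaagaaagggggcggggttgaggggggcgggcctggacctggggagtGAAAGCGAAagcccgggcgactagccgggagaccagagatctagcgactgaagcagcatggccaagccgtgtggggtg
PSMB8, the second annotated start, chr6:32843998-32844297, minus strand: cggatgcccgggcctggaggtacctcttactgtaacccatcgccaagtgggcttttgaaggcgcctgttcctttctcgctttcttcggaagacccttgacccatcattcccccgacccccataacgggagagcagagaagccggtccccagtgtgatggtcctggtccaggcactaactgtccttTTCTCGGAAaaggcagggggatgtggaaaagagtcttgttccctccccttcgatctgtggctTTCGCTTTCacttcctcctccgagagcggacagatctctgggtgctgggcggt
PSMD12, chr17:67366528-67366827, minus strand: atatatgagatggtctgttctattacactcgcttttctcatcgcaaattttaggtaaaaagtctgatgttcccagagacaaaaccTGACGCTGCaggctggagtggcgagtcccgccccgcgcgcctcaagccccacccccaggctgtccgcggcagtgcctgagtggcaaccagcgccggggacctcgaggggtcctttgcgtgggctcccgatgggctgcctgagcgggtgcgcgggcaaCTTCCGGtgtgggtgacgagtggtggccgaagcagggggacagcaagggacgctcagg

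The printed windows of PSME1, PSME2 and PSMB8 held a run that matches GAAANNGAA within 30 bases of the start, as TTCGCTTTC in PSME1 and PSMB8 and as GAAAGCGAA in PSME2, which is the same run read on the other strand. The window of the other annotated start of PSMB8, which is not printed, held no match to any of these 4 motifs. Across the members, GAAANNGAA was found in the windows of 6 of the 37 constitutive genes with one (16.2%: PSMA4, PSMB4, PSMC2, PSME1, PSME2 and PSMG4) and of PSMB8 and PSMB10, against 9.86% of 27305 genes. TGACNNNGC was found in 14 of the 37 (37.8%), PSMD12, PSMC4, PSMA4, PSME1 and PSME2 among them, against 16.1% of all genes. CCGGAAG was also found in 14 (37.8%), against 12.2%, CCAAT in 18 (48.6%), against 39.7%, TTCNNNGAA in 6 (16.2%), against 9.38%, and the E box CACGTG in 3 (8.11%), against 8.77%. PSMD12 does not stand for the members lower with both inhibitors at 30 h. Of those with a window only PSMD12 held both TGACNNNGC and CCGGAAG, PSME3 held neither, and PSMG3 had no window. Motifs can overlap each other, and a gene with several starts has several windows. The 27305 genes take in many that are not among the 11147 tested here. The shares do not take the level of a gene or its number of windows into account. The motifs were chosen after the values were seen, GAAANNGAA after these sequences were read. A match is a run of letters and does not show binding.

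The chaperones that build the alpha ring held the member lower in all 4 comparisons of an inhibitor with EGF alone, PSMG3 (chr7:1567330-1571005, GRCh38, minus strand). PSMG3 stood at 63.4 and 63.4 scaled CPM with the MEK inhibitor at 20 h, 61.3 and 42.4 under the PI3K inhibitor and 88.7 and 86.2 with EGF alone. At 30 h it stood at 55.7 and 55.2 scaled CPM with the MEK inhibitor, 51.7 and 45.5 under the PI3K inhibitor and 95.8 and 77.7 with EGF alone. No inhibitor group overlapped EGF alone at either time. The changes were -0.45 (adjusted p = 0.011) and -0.62 (adjusted p = 1.4e-05) with the MEK inhibitor at 20 h and 30 h, and -0.72 (adjusted p = 3.2e-05) and -0.83 (adjusted p = 8.2e-08) with the PI3K inhibitor. All 11 tested alternatives kept the last 3 of these calls, and 6 of 11 the first. The first was lost without library 1 of the MEK inhibitor and without library 2 of EGF alone. PSMG3-AS1, which overlaps it on the other strand, had 0 to 4.39 scaled CPM in the 16 sums.

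PSMG1, which pairs with PSMG2 in the first assembly step, was lower with the MEK inhibitor at 30 h, at 132 and 150 scaled CPM against 205 and 207 with EGF alone (log2 -0.53, SE 0.09, adjusted p = 5.3e-06). This call was kept by all 11 tested alternatives. With the PI3K inhibitor it stood at 164 and 184 scaled CPM (log2 -0.24, adjusted p = 0.036). PSMG4, the partner of PSMG3, stood at 59.0 and 56.6 scaled CPM with the MEK inhibitor at 30 h, against 83.9 and 78.5 with the PI3K inhibitor (log2 -0.49, adjusted p = 0.00024; not called with thinned cells), and neither was called against EGF alone at 76.9 and 62.1. Of the chaperones of the 19S base, PSMD10 (gankyrin) stood at 11.6 and 9.31 scaled CPM with the MEK inhibitor at 20 h, against 5.03 and 4.93 with the PI3K inhibitor (log2 1.06, SE 0.32, adjusted p = 0.012). Both groups lie under the 20 CPM asked of the genes given in most detail. PSMD10 has 3 annotated pseudogene copies, and its call was not followed by itself in the alternatives. PSMD5 and PSMD9 were called in none of the 10 pairwise comparisons, and the same held for the inhibitor PSMF1.

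**Figure D4:**
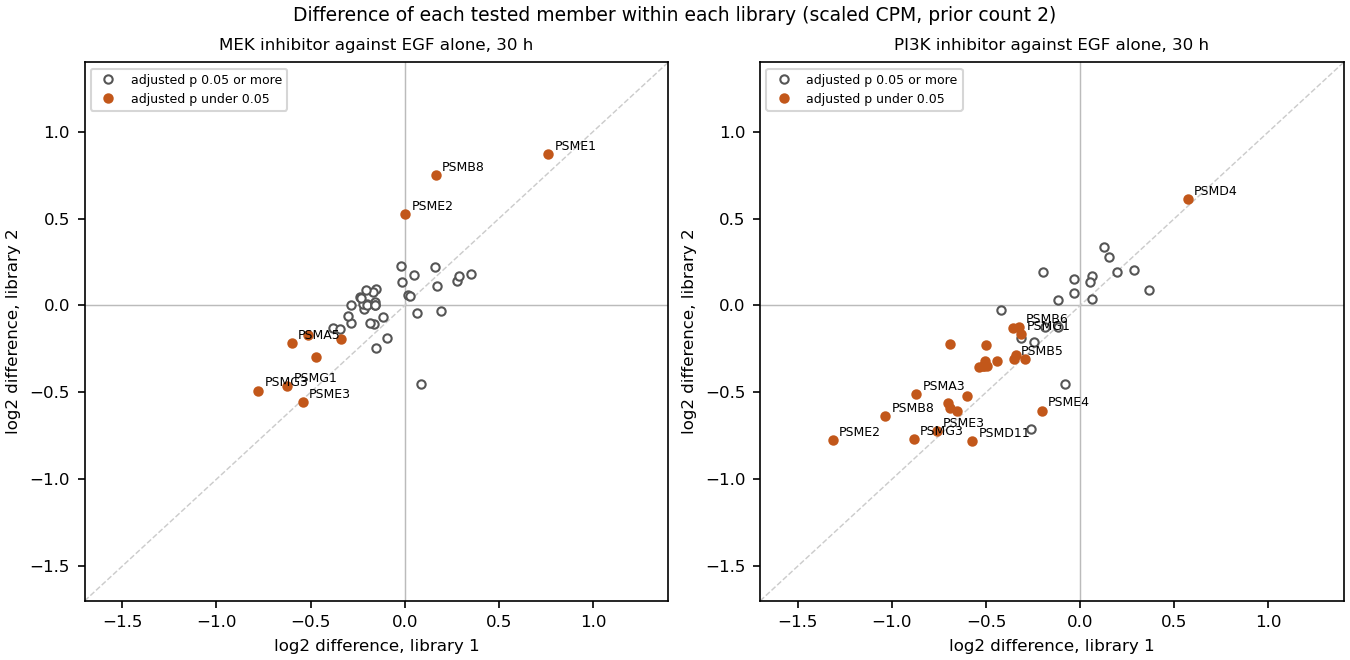
Log2 difference from EGF alone at 30 h of each of the 45 tested members in library 1 (horizontal axes) and library 2 (vertical axes), for the MEK inhibitor (left) and the PI3K inhibitor (right); filled points had an adjusted p under 0.05 and the dashed line marks equal differences. PSMD4 lies in the upper right of the PI3K inhibitor panel and PSME2 in its lower left, and in the MEK inhibitor panel PSME2 differs by 0.00 in library 1 and 0.53 in library 2.

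The effect of the PI3K inhibitor at 30 h was set against its effect at 20 h in the same fit. The difference of effects was called for 2 of the 43, PSME2 (-0.64, SE 0.19, adjusted p = 0.033) and PSMD2 (-0.46, SE 0.14, adjusted p = 0.031), where 2.4% of all genes were higher and 3.25% lower (5.65% in either direction). The fit without the library term called 0, as did each of the fits without library 1 of the PI3K inhibitor or EGF alone at 30 h and without library 2 of the PI3K inhibitor or EGF alone at 20 h. PSMD2 stood at 147 and 145 scaled CPM with the PI3K inhibitor at 20 h, against 141 and 134 with EGF alone. At 30 h it stood at 110 and 126 with the PI3K inhibitor, against 150 and 157 with EGF alone, so the groups at 30 h did not overlap while those at 20 h lay close. PSME2 instead rose with EGF alone between 20 h and 30 h (log2 0.59), while its levels with the PI3K inhibitor lay close. For the MEK inhibitor edgeR called 0 of the 43, where 2.92% of all genes were higher and 2.66% lower (5.58% in either direction). Of the 43, 4 had an unadjusted p under 0.05 and DESeq2 called 0, and without library 2 of the MEK inhibitor at 30 h edgeR called 2.

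Constitutive genes differed in how far they followed one another over the 16 sums. The log2 level of each, centred within its library, was correlated with the mean of the other 42, and the median r was 0.66, with 20 of 43 above 0.7. PSMC3 (0.94), PSMA4 (0.93) and PSMB3 (0.91) were closest to the mean of the rest. PSME1 (-0.47), PSMB4 (-0.42), PSMD4 (-0.35), PSMD10 (-0.26), PSME4 (-0.23) and PSMA6 (-0.09) ran below 0. PSMD10, PSME4 and PSMA6 had low levels, with condition means of at most 17.7, 21.0 and 10.9 scaled CPM. For PSMA6 r was 0.26 in library 1 and -0.21 in library 2. Sums of the same library share its depth and composition, so these values are a description. The highest mean level fell in EGF alone at 30 h for 20 of the 43 and in the MEK inhibitor at 30 h for 9. The lowest fell in unstimulated cells for 27 and in the PI3K inhibitor at 30 h for 7. The same counts were not made over all genes, so they show no trait particular to the members. The unstimulated group, with 29 cells in library 2, held the fewest cells and UMIs of each library.

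Genes that supply the proteasome changed in both directions. Of 15 such genes tested, 4 were higher and 5 lower in cells treated with MEK inhibitor until 30 h, and PI3K inhibition until 30 h left 2 higher and 3 lower. Beside these and the next lists stand 18.9% of all genes higher and 19% lower with the MEK inhibitor at 30 h, and 19.7% higher and 20% lower with the PI3K inhibitor, and the counts for the PI3K inhibitor here lie near those shares. POMP, which completes the core by adding the beta ring, stood at 493 and 520 scaled CPM with the MEK inhibitor at 30 h, 532 and 530 under the PI3K inhibitor and 698 and 665 with EGF alone (log2 -0.42 and -0.36 against EGF alone). UCHL5, a deubiquitinase of the 19S cap, was lower by 0.71 with the MEK inhibitor and by 0.78 with the PI3K inhibitor. NFE2L1, a transcription factor that induces proteasome genes when the proteasome falls short, stood at 51.2 and 41.4 scaled CPM with the MEK inhibitor at 30 h and 20.5 and 17 with the PI3K inhibitor, against 16.3 and 20.5 with EGF alone. It was higher with the MEK inhibitor by 1.27 (SE 0.15, adjusted p = 4.7e-10). It was lower by 1.54 on the log2 scale after 15 h of EGF than in unstimulated cells. The part of NFE2L1 in the changes of the members was not tested.

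Of 15 genes of ubiquitin supply and shuttling tested, PI3K inhibition until 30 h left 4 higher and 2 lower, and MEK inhibition 2 higher and 1 lower, against the same shares of all genes (19.7% and 20%, and 18.9% and 19%). SQSTM1, the autophagy receptor that binds ubiquitin, stood at 203 and 198 scaled CPM with the PI3K inhibitor at 30 h and 156 and 121 with the MEK inhibitor, against 98.7 and 100.3 with EGF alone. Of 12 antigen processing genes tested, MEK inhibition until 30 h left 6 higher and 1 lower, against 18.9% and 19% of all genes. PI3K inhibition left 2 higher and 3 lower, near the 19.7% and 20% of all genes. B2M, the light chain of MHC class I, was higher with the MEK inhibitor by 0.40 (adjusted p = 0.00039). TAP2, which carries peptides into the endoplasmic reticulum, was lower with the PI3K inhibitor by 0.94 on the log2 scale (adjusted p = 7.3e-05). TAP1, the partner of TAP2, was called in neither comparison.

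Of the 6 rows that only begin like a subunit, 3 were tested. PSMC3IP, a meiotic recombination partner with no part in the proteasome, stood at 5.20 and 5.66 scaled CPM with the PI3K inhibitor at 30 h and 7.50 and 5.65 with the MEK inhibitor, against 12.6 and 11.8 with EGF alone (log2 -1.14 and -0.95). PSMA3-AS1 stood at 14.7 and 14.9 scaled CPM with the MEK inhibitor at 30 h, against 24.2 and 21.4 with the PI3K inhibitor (log2 -0.60, adjusted p = 0.0041), while PSMA3, which it overlaps on the other strand, was higher in the same comparison. PSMG3-AS1 stood at 2.71 and 3 scaled CPM with the MEK inhibitor at 20 h, against 0.839 and 0.493 with the PI3K inhibitor (log2 1.98, SE 0.75, adjusted p = 0.049). Those levels lie far under the 20 CPM asked of the genes given in most detail. The calls of these 3 rows were not set against the alternatives. The 3 rows not tested had 0 to 4.39 scaled CPM.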

How the data were processed

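MCF10A cells of 8 conditions, each with its own tag, were pooled and sequenced cell by cell in 2 libraries. The authors deposited whole-number UMI counts for each gene symbol in each cell, not normalised, and tables that give the tag of each barcode. Per the submitters' processing notes Cell Ranger 3.0.2, Seurat and build GRCh38 were used; no source names the annotation release, the strand setting or the cell filter. The tag tables list 8641 and 6161 barcodes, of which 4848 and 2478 are marked as doublets; the deposited counts hold 2616 and 2221 cells, each with 1 tag, and 33089090 and 28542571 UMIs. All of these cells were used, and no doublet caller was run.

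Counts were summed per library and condition, giving 16 sums of 213208 to 8508781 UMIs. After filterByExpr and TMM scaling they entered edgeR's quasi-likelihood test (edgeR 4.0.16, limma 3.58.1, R 4.3.3), with the library as a block, and p was adjusted by Benjamini-Hochberg over 11147 genes and a threshold of 0.05. The fit had 7 residual degrees of freedom; the SE of a fold change was derived from its F statistic. The block stands for libraries that the series' design text calls biological replicates. Differences per library use a prior count of 2. The pipeline was tested on simulated data. Alternatives were no library block, RLE size factors, totals only, no filter, DESeq2 1.42.0, cells above the 90th percentile of UMIs left out, cells thinned to 6000 UMIs, each sum left out in turn and each library alone.

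Every member may be named. The genes given in most detail were, per inhibitor comparison, up to 5 each way, and per other comparison up to 3 each way, by size of change among called genes whose libraries shared a sign and which averaged 20 CPM or more, with the catalytic, immunoproteasome and activator genes always; others were chosen after their values were seen. The members and all lists were chosen with earlier results of these data known. Positions come from GENCODE v29 (GRCh38), and start sequences from RefSeq (GRCh38.p14), where 40 of the 46 plain symbols matched. Protein sequences were not used here, so a planned comparison of catalytic subunits by sequence was not made. PSMC1, PSMA6, PSMA2, PSMD10 and PSME2 have more than 1 annotated pseudogene copy, so their counts are uncertain where reads could be shared.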

Additional observations from a re-analysis of the deposited data

Results flagged for a closer look

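Both results stand here because the effect of the PI3K inhibitor differed between 2 times by a test of the difference itself, in the fit over all conditions. For PSME2 the effect at 30 h minus the effect at 20 h was -0.64 on the log2 scale (adjusted p = 0.033), with -0.83 in library 1 and -0.53 in library 2. For PSMD2 it was -0.46 (adjusted p = 0.031), with -0.50 in library 1 and -0.43 in library 2. Between 20 h and 30 h PSME2 rose with EGF alone (log2 0.59), while its levels with the PI3K inhibitor lay close. Both comparisons share no control group, since each time has its own cells with EGF alone. Of 15 tested alternatives 6 kept the call of PSME2; it was lost without library 1 of the PI3K inhibitor at either time or of EGF alone at 30 h, and without library 2 of the PI3K inhibitor or EGF alone at 20 h.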

How the results depend on the processing

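Replicate block. The library is a term of every fit. Without it the calls among the 43 constitutive members were 0 for the MEK inhibitor at 20 h and 3 at 30 h, 1 for the PI3K inhibitor at 20 h and 14 at 30 h, 1 and 7 for MEK against PI3K inhibitor, 10 for 15 h of EGF against unstimulated cells, 0 for 30 h against 20 h of EGF and 0 for the change of the PI3K inhibitor effect; 22 of the 27 calls at 30 h of EGF against unstimulated cells were kept. With totals alone the calls were 1, 27, 17 and 33 for the MEK inhibitor at 20 h and 30 h and the PI3K inhibitor at 20 h and 30 h, 11 for MEK against PI3K inhibitor at 20 h, 1 for 20 h against 15 h of EGF, and 3 and 8 for the changes of the MEK and PI3K inhibitor effects. With cells thinned to 6000 UMIs they were 1, 5 and 3 for the MEK inhibitor at 20 h and 30 h and the PI3K inhibitor at 20 h, 13 for 15 h of EGF and 0 for the change of the PI3K inhibitor effect. DESeq2 gave 0 for the MEK inhibitor at 20 h and 1 for the change of the PI3K inhibitor effect, which was also 1 with no filter and with the deepest cells left out, where 30 h against 20 h of EGF gave 1. RLE size factors gave 6 for MEK against PI3K inhibitor at 20 h. The cause was not tested; thinned sums hold fewer counts.

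Leaving out 1 sum, where the lone sum of a condition is assumed to vary like the others, gave 0 to 1, 6 to 8, 2 to 6 and 18 to 21 calls for the MEK inhibitor at 20 h and 30 h and the PI3K inhibitor at 20 h and 30 h, 3 and 15 to 20 for MEK against PI3K inhibitor at 20 h and 30 h, 2 to 21 and 4 to 27 for 15 h and 30 h of EGF against unstimulated cells, 0 to 1 for 20 h against 15 h and 0 to 2 for 30 h against 20 h of EGF, and 0 to 2 for each change of effect. PSMB8 reversed at 15 h of EGF against unstimulated cells, to 0.48 without library 1 of the unstimulated cells and 0.34 in library 2 alone; leaving out 1 sum gave -1.37 to 0.48. On the TMM scale the proteasome sum averaged 6657 CPM with the MEK inhibitor at 30 h, 6078 with the PI3K inhibitor and 7050 with EGF alone. The 29 unstimulated cells of library 2 limit every comparison with them.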
